A study of Mus musculus with 91 samples.

Results

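The family of miR-15, miR-16 and miR-195 was followed here through 5 mature miRNAs, mmu-miR-15a-5p, mmu-miR-15b-5p, mmu-miR-15b-3p, mmu-miR-16-5p and mmu-miR-195a-5p. They were chosen by name, not by their values, and are 5 of the 1504 mature miRNAs in the main count table. The data are small RNA libraries made from about 100 pg of RNA with a Cas9-assisted method that removes adapter dimers, and each value is the number of reads assigned to a mature miRNA. In all, 91 libraries in 26 groups were used.

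Mouse embryos came from Oct4-EGFP males (C57BL/6 in the labels, a C57BL/6J background in the methods) and F1 (B6D2F1) females. Zygotes received mRNA of a cytosine base editor that writes stop codons. Controls received the editor mRNA without guide RNAs. Guides against Dnmt1 gave Dnmt1-KO embryos (labelled KO), guides against Dnmt3a and Dnmt3b gave Dnmt3a/3b-DKO embryos (labelled DKO), and guides against all 3 genes gave Dnmt-null embryos (labelled TKO), so every mutant is an injected embryo typed by sequencing and not a bred line. Extraembryonic ectoderm (Exe) and epiblast (Epi) were parted by needle at E6.5 and E7.5, which gave 62 libraries in 16 groups of 4, apart from 3 in the E7.5 Epi controls and 3 in the E7.5 Epi Dnmt-null group. A further 11 libraries came from androgenetic haploid embryonic stem cells (AG-haESCs), which carry a sperm genome and were grown in 2i and Lif. They comprised WT cells, line O48, line Mir-6KO and line 408. O48 is not defined in the labels. The methods name it as the line that received the guides for miRNA deletion, so it is taken here to be the DKO-AG-haESC line, which is an inference. In these cells DKO means deletion of the H19 and IG differentially methylated regions and has nothing to do with Dnmt3a or Dnmt3b. Mir-6KO is 1 clonal derivative that also lacks miR-409, miR-540, let-7b, miR-369, miR-127 and miR-541. The genotype of line 408 is not given in the labels. Injection of AG-haESCs into oocytes gave semi-cloned (SC) embryos, of which the E6.5 groups were WT, DKO, Dnmt-null and DKO;Dnmt-null, and the E7.5 groups Control and Mir-6KO;Dnmt-null. The E7.5 Control-SC embryos also carry the H19 and IG deletions. Nothing in the labels says that libraries of 1 cell line came from separate cultures, so their p-values measure the spread between these libraries only.

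miRNAs of this family are known as brakes on the passage from G1 to S phase. They bind the 3′ UTRs of cyclin and cyclin-dependent kinase mRNAs and of Bcl2, an inhibitor of apoptosis, and pairing of bases 2 to 8, the seed, sets which mRNAs they bind. Rapidly dividing pluripotent cells are known to rely on the opposing miR-290 and miR-302 families, which shorten G1.

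The mature sequences are printed because they show which members can stand in for one another and which reads cannot be traced to a locus. They come from RefSeq (GRCm38.p6), are written 5′ to 3′, and have the seed in capitals.
miR-16-5p: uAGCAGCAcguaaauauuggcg
miR-195a-5p: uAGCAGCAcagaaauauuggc
miR-15a-5p: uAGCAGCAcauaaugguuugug
miR-15b-5p: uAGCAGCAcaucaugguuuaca
miR-15b-3p: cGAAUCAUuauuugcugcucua

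Of the members, 4 share the seed AGCAGCA. miR-15b-3p, the opposite arm of the miR-15b hairpin, has the seed GAAUCAU, which no other mature mouse miRNA in the reference has. Counted from the 5′ end, miR-195a-5p differs from miR-16-5p by G10A and U11G and matches it at the other 19 of 21 bases, so a tolerant alignment could pass reads between them. How many mismatches the authors' alignment allowed is not given in the sources used here. miR-15b-5p differs from miR-15a-5p by A12C, G20A, U21C and G22A, so the last 3 of those bases lie at the 3′ end, where trimmed reads lose information. In the reference, 10 mature miRNAs have the family seed, and 6 of them are rows of the main table. Beside the members these were miR-322-5p and miR-497a-5p.
miR-322-5p: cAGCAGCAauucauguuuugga
miR-497a-5p: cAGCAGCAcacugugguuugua

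The members lie at 3 loci. Mir15b (mature 5p arm chr3:69009775-69009796, + strand) and Mir16-2 (chr3:69009918-69009939, +) lie 66 bases apart in an intron of Smc4, which encodes a condensin subunit. Mir15a (chr14:61632075-61632096, -) lies in an intron of the noncoding gene Dleu2 and is 65 bases from Mir16-1 (chr14:61631936-61631957, -), which overlaps an exon of at least 1 Dleu2 transcript. Mir195a (chr11:70235062-70235082, +) is 241 bases from Mir497 and lies in no annotated host gene. The mature miR-16-5p of Mir16-1 and Mir16-2 is the same molecule, so its counts cannot be assigned to chromosome 3 or 14. Their opposite arms differ at 10 of 22 bases and are counted apart.
miR-16-1-3p: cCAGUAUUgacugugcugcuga
miR-16-2-3p: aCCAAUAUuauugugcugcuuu

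Depth varied widely. The Exe and Epi libraries held 45242 to 2394918 miRNA counts (median 401239.5), the E6.5 SC libraries 154061 to 2425038, the AG-haESC libraries 3813865 to 16501907 and the E7.5 SC libraries 8570373 to 26970637. Tissue labels were checked against markers fixed as lists: miR-302a to d and miR-367, the cluster of epiblast, summed to 130389 to 212606 CPM (counts scaled to the same total of miRNA counts in every library) in the control Epi libraries and 17588 to 45944 in the control Exe libraries. A few libraries stood apart. Both AG-haESC libraries labelled Mir-6KO had a miR-302 and miR-367 sum of 239331 to 268002 CPM against 924 to 1670 in O48 and 3659 to 3914 in WT, which goes against their label as stem cells in 2i. WT-SC replicate 3 at E6.5 had 21252 CPM of these miRNAs against 195381 and 214514 in the other WT-SC libraries, and E6.5 Epi Dnmt-null replicate 1 had the fewest counts of all, 45242. Comparisons of members that rest on WT-SC replicate 3 or E6.5 Epi Dnmt-null replicate 1 are given with and without it, and nothing can be given for Mir-6KO cells without both of their libraries.

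The family was unevenly filled. miR-16-5p was the most abundant member by count in Exe and Epi, with a median of 3186 CPM and a median rank of 65.5 among all miRNAs, followed by miR-15b-5p with 1003 CPM and a rank of 112. miR-15b-3p had a median of 66.5 CPM, miR-15a-5p 30.05 and miR-195a-5p 18.6. Ligation and PCR favour some sequences over others, so this order describes reads and not molecules. Neither miR-16-5p nor miR-15b-5p was at 0 in any of the 62 libraries. miR-195a-5p was at 0 in 17 of them, miR-15a-5p in 8 and miR-15b-3p in 4. miR-195a-5p had under 10 counts in 36 libraries and miR-15a-5p in 29, so changes of these members were poorly resolved. Over all 62 libraries miR-16-5p took 0.331% of all counts and miR-15b-5p 0.113%.

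**Figure D1:**
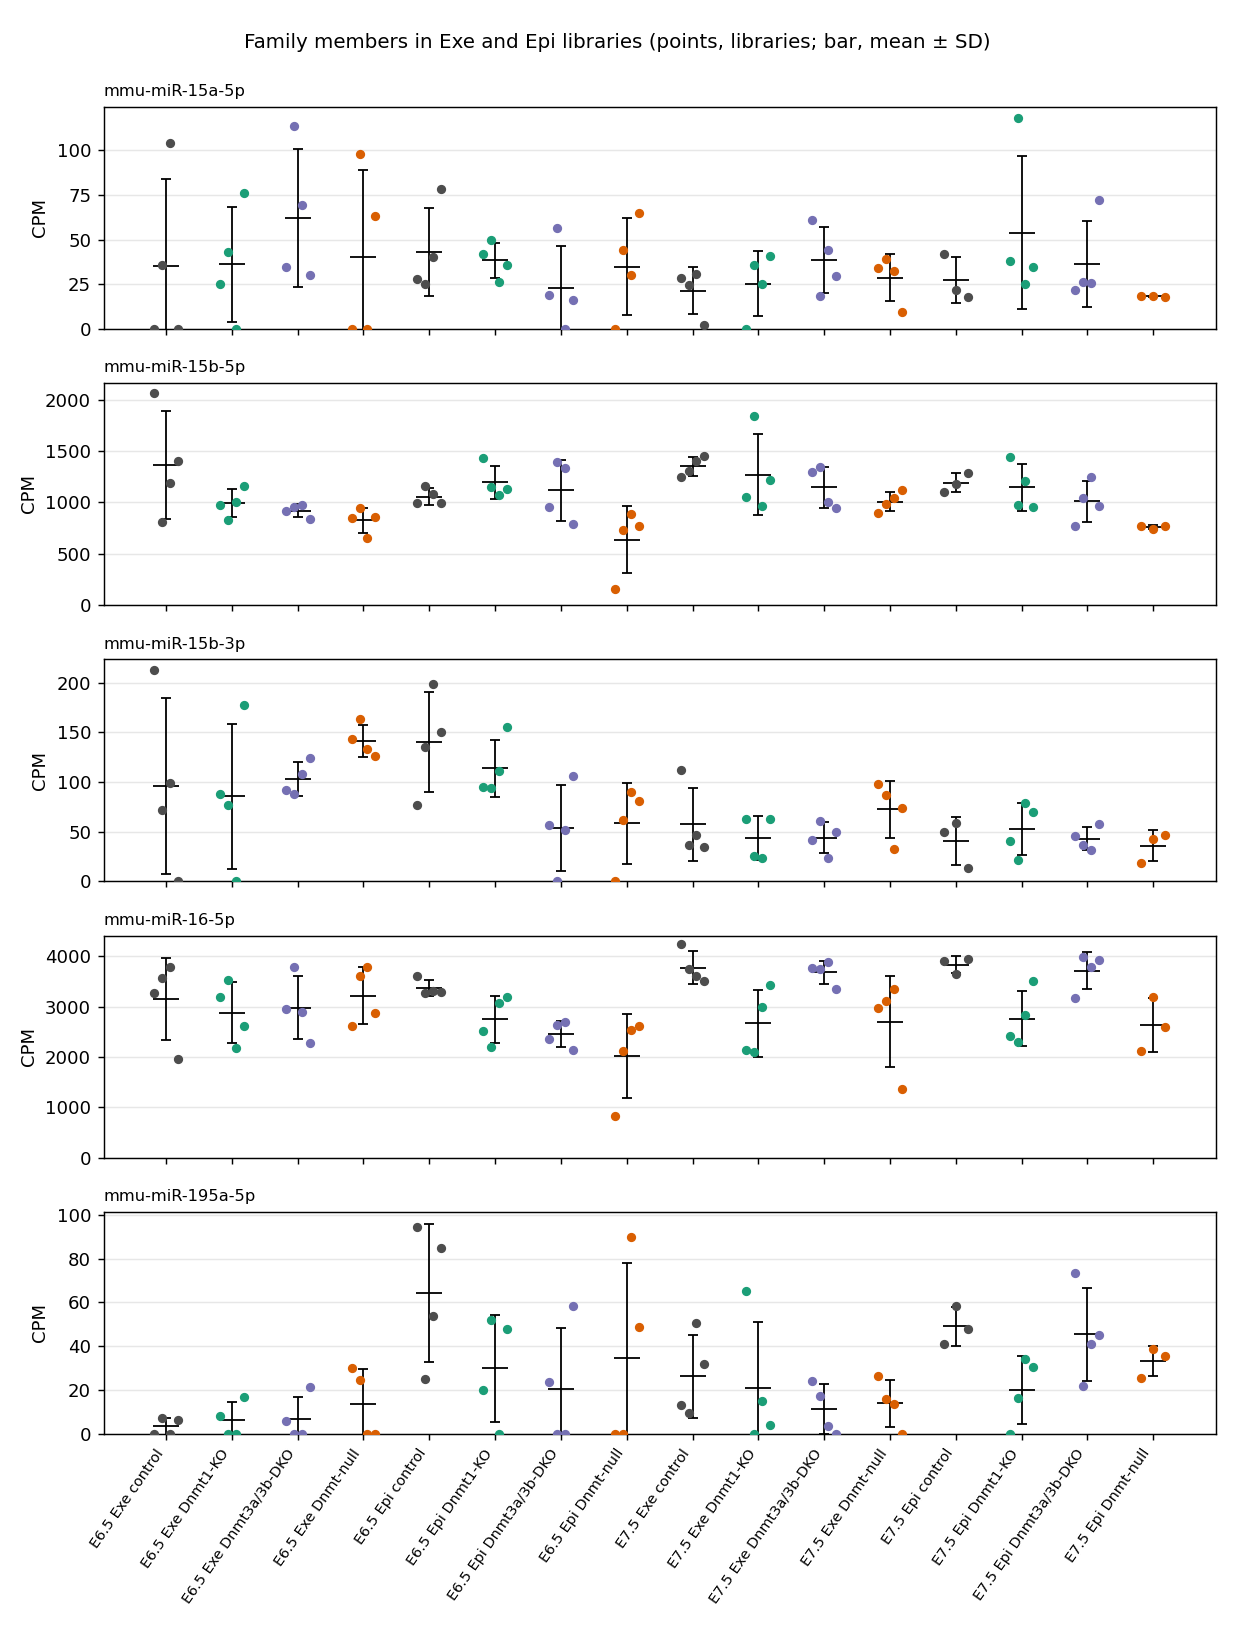
Levels of the 5 members in CPM (y axis, 1 panel a member) in the 16 Exe and Epi groups (x axis). Points are libraries, bars mark the mean with the SD, and colour gives the genotype. miR-16-5p ran from 818 to 4241 CPM and miR-195a-5p was at 0 in 17 of the 62 libraries.

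Ordered by group mean, no member split the 16 groups into separate levels. All 15 pairs of neighbouring groups overlapped for every member. For miR-16-5p the top of that order was the E7.5 Epi control group (3839 ± 168 CPM, SD, n = 3) and the bottom the E6.5 Epi Dnmt-null group (2019 ± 831, n = 4). For miR-15b-5p the top was the E6.5 Exe control group (1367 ± 529, n = 4), which 1 library at 2068 raised, and the bottom again the E6.5 Epi Dnmt-null group (635 ± 327, n = 4).

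In control embryos the question was whether family levels separate Exe from Epi. At E6.5 miR-195a-5p did: its counts in the 4 Exe controls were 0, 1, 0 and 1, and in the 4 Epi controls 27, 7, 24 and 39. In CPM these were 0, 7.19, 0 and 6.39 in Exe and 94.3, 24.9, 53.6 and 85.0 in Epi, so the groups did not overlap. It was the single member called of 5 tested (edgeR quasi-likelihood test, Benjamini-Hochberg over all miRNAs tested, adjusted p = 0.0051), in a comparison in which 29.4% of all 558 miRNAs tested were called. Since it passed the filter on low counts mainly through the Epi controls, where it was high, the call adds no support to these counts. The fitted log2 difference, Exe against Epi, was -4.19 ± 1.02 (SE), but it rests on an Exe group at the limit of detection. Pooled, 2 of 563284 counts in Exe and 97 of 1473912 in Epi were miR-195a-5p, a ratio of Epi to Exe of 18.5 with an exact 95% interval of 4.99 to 155 that covers counting error only. The shallowest Exe control held 65751 counts, where 3 counts are 45.6 CPM, so in that library levels like those of Epi replicate 2 would not have been detectable. In a fit of only these groups miR-195a-5p did not pass the filter on low counts, so no member was called.

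Levels of the neighbour of miR-195a on chromosome 11 are given as a description. miR-497a-5p, which has the same seed and lies beside miR-195a, was at 0 in all 4 E6.5 Exe controls and at 43.5 ± 19.3 CPM (SD, n = 4) in the Epi controls (5 to 21 counts). No test is given, since it passed the filter on low counts mainly through the Epi controls. The markers of mesenchyme and vessel, in which miR-195a and miR-497a are also known, summed to 244 to 306 CPM in the E6.5 Epi controls and 332 to 820 in the Exe controls. The part of these cells in the levels was not tested.

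At E7.5 no member was called between control Exe and Epi (edgeR), and none reached an unadjusted p under 0.05 or was called by DESeq2, while 33.2% of all miRNAs were called. miR-195a-5p was at 13.3, 9.34, 50.7 and 32.0 CPM in Exe and at 40.8, 58.5 and 48.1 in Epi, overlapping ranges (log2 difference -0.99 ± 0.78, adjusted p = 0.389). Whether the difference between tissues itself changed between stages was not tested. miR-16-5p ran from 3518 to 4241 CPM in Exe and from 3646 to 3957 in Epi, and miR-15b-5p from 1251 to 1448 and from 1105 to 1290.

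Scaling miR-195a-5p to miR-16-5p, the member nearest to it in sequence, removes library composition and uses all genotypes. The mean log2 ratio of the counts, with 0.5 added to each, was -8.57 in Exe and -6.77 in Epi, a difference of -1.80 that had the same sign in 8 of 8 stage and genotype sets. By a two-sided permutation test with labels exchanged within those sets, p was 0.00032, or 0.0032 adjusted over 30 tests. The E6.5 controls above are among these libraries. Of the other ratios within the family none separated Exe from Epi: the difference was 0.03 for miR-15b-3p to miR-15b-5p (adjusted p = 0.998) and 0.56 for miR-15b-5p to miR-15a-5p (adjusted p = 0.366).

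From E6.5 to E7.5 no member was called in control Exe (14.3% of all miRNAs called) or control Epi (26.9%). edgeR gave 1 member an unadjusted p under 0.05 in Exe and none in Epi, and DESeq2 called none in either. The member in Exe was miR-195a-5p, with 0 to 1 counts at E6.5 and 13.3, 9.34, 50.7 and 32.0 CPM at E7.5 (log2 difference 2.84 ± 1.03, adjusted p = 0.0759). miR-15b-3p in control Epi was at 76.8, 135, 198.8 and 150 CPM at E6.5 and at 49.9, 58.5 and 13.6 at E7.5, groups that did not overlap (log2 difference -1.77 ± 0.88, adjusted p = 0.157). In a fit of only these groups it was -1.67 with an adjusted p of 0.0422. Its partner strand, miR-15b-5p, was at 992 to 1159 and 1105 to 1290 CPM in the same libraries.

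The arms of Mir16-2 and Mir16-1 could have told the loci of miR-16-5p apart, but were too rare for it. Both opposite arms were above 0 in 9 of 62 libraries and both at 0 in 30. miR-16-2-3p, of the Smc4 locus, had 5 to 14 counts in the E6.5 Epi controls (29.4 ± 15.9 CPM, SD, n = 4) and was at 0 in all 3 E7.5 Epi controls. In Exe it was at 0 in 3 of 4 controls at E6.5 and at 8.34 ± 7.42 CPM at E7.5. With 0 to 14 counts a library, and a low-count filter passed mainly through the E6.5 Epi controls, these levels are given with no test.

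Loss of all 3 methyltransferases was compared with control embryos in each tissue and stage, and edgeR called members in Epi at E7.5 alone. miR-16-5p was at 3912, 3646 and 3957 CPM in the controls and at 2122, 3194 and 2592 in the Dnmt-null libraries. miR-15b-5p was at 1105, 1178 and 1290 CPM in the controls and at 770, 740 and 771 in the Dnmt-null libraries. Every Dnmt-null library lay below every control for both members. miR-16-5p fell by 0.78 ± 0.16 on the log2 scale (adjusted p = 0.00123) and miR-15b-5p fell by 0.88 ± 0.21 (adjusted p = 0.00335), which made 2 of 5 members called where 33.7% of all 652 miRNAs were called. Both calls held in all 14 alternatives.

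The remaining members of this comparison were not called. miR-15a-5p (-0.82 ± 0.76), miR-195a-5p (-0.78 ± 0.91) and miR-15b-3p (-0.40 ± 0.67) had negative log2 differences with wide errors. The median over the 5 members was -0.78 against -0.19 over all miRNAs tested. Scaling matters here: with library totals in place of TMM factors the median of all miRNAs moved from -0.19 to 0.05, and the members read -0.54 for miR-16-5p (adjusted p = 0.0258) and -0.65 for miR-15b-5p (adjusted p = 0.0229).

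All 5 marker lists and the depth moved with genotype in these libraries. Totals were 272867 to 488108 counts in the Dnmt-null group and 1623256 to 2325698 in the controls. In the same order, the miR-302 and miR-367 sum was 105333 to 164935 CPM against 202279 to 212606, and 6 Exe markers summed to 3006 to 5792 against 1291 to 1761. The 6 markers of mesenchyme and vessel summed to 186 to 262 CPM against 418 to 804 and the 4 of endoderm to 2334 to 3042 against 3459 to 4174. The 9 blood markers summed to 960 to 1217 CPM against 253 to 267, mostly through miR-142a-5p (781 to 1035 against 4.31 to 58.0). Of the other blood markers miR-451a was at 10.7 to 25.7 CPM against 0 to 3.70, miR-486a-5p and miR-486b-5p, which have equal counts in every column, at 22.0 to 57.1 against 56.1 to 80.4, and miR-150-5p at 50.0 to 110 against 67.9 to 135. miR-144-5p and miR-223-3p were at 0 throughout, and miR-144-3p and miR-142a-3p at 0 to 10.6. The part of these differences in the result was not tested. In bulk tissue fewer cells of a type and less RNA per cell cannot be told apart.

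The Dnmt1-KO and Dnmt3a/3b-DKO embryos show which single or paired loss was near the Dnmt-null values in E7.5 Epi. In Dnmt1-KO, miR-16-5p was at 2423, 2295, 2839 and 3505 CPM, all below the 3 controls, and fell by 0.66 ± 0.15 on the log2 scale (adjusted p = 0.00424). It was the 1 member called, with 16.3% of all miRNAs called. In these Dnmt1-KO libraries the miR-302 and miR-367 sum was 135939 to 200375 CPM, Exe markers 2083 to 3024 and blood markers 455 to 818 (miR-142a-5p 182 to 477), none overlapping the controls, and their part in the call was not tested. With library totals the difference was -0.47 and the adjusted p was 0.0603. miR-15b-5p in Dnmt1-KO, at 1442, 976, 1206 and 959 CPM, overlapped the controls (-0.24 ± 0.19, adjusted p = 0.46).

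In Dnmt3a/3b-DKO Epi, miR-16-5p was at 3180, 3979, 3785 and 3928 CPM and miR-15b-5p at 774, 1048, 1252 and 969. Both overlapped the controls, and no member was called by edgeR or DESeq2 or reached an unadjusted p under 0.05 (7.67% of all miRNAs called). Their log2 differences were -0.14 ± 0.15 and -0.33 ± 0.19.

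Tested against one another, the mutants differed in part. Between Dnmt-null and Dnmt3a/3b-DKO Epi at E7.5 miR-16-5p was lower in Dnmt-null by -0.65 ± 0.15 on the log2 scale (adjusted p = 0.00672, 16.4% of all called), although without Dnmt-null replicate 1 this was -0.46 (adjusted p = 0.0953) and with library totals -0.50 with an adjusted p of 0.050024. Between Dnmt-null and Dnmt1-KO miR-16-5p was not called (-0.12 ± 0.15, adjusted p = 0.711), and miR-15b-5p was lower in Dnmt-null by -0.64 ± 0.19 (adjusted p = 0.0428, 10.9% of all called). That last call was lost in 9 of 15 alternatives, among them leaving out any Dnmt-null library or Dnmt1-KO replicate 1 or 3.

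**Figure D2:**
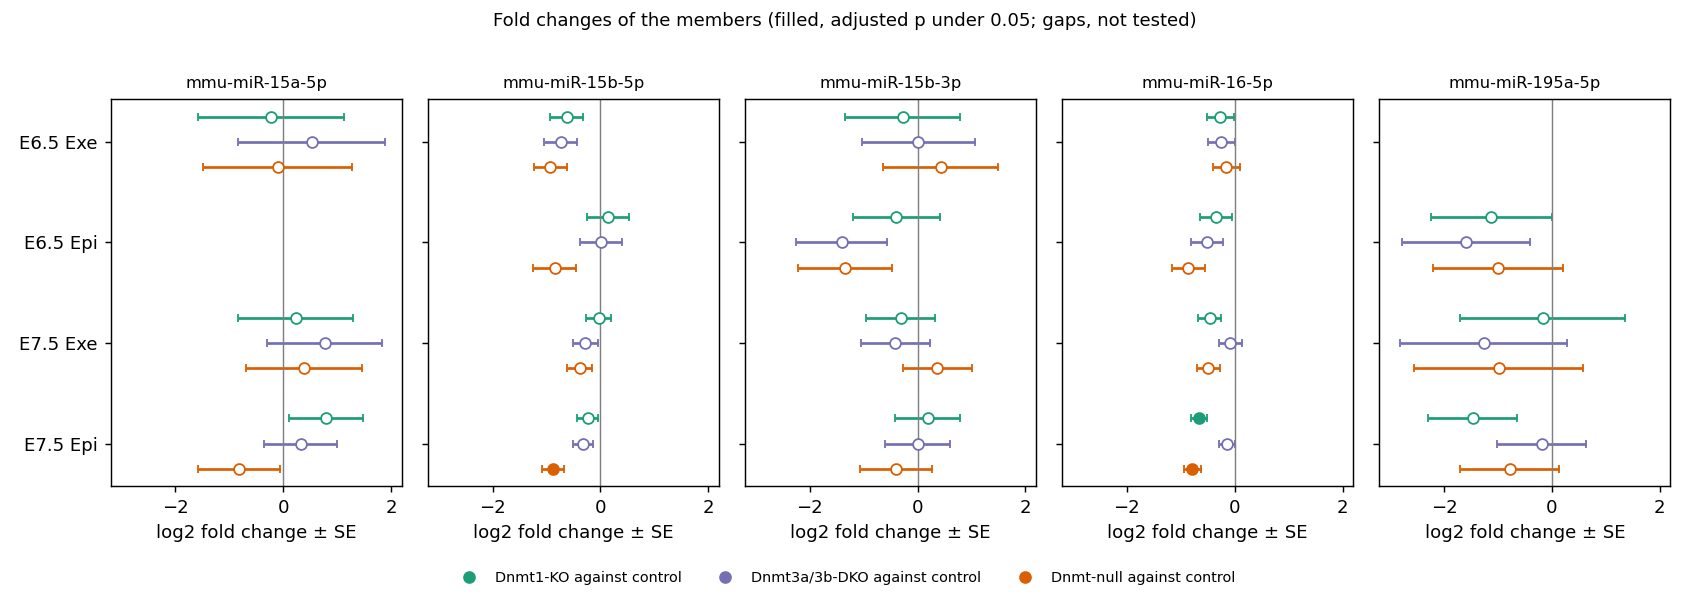
Log2 fold changes (x axis, with SE) of each member in 3 mutants against control, by tissue and stage (y axis). Filled points had an adjusted p under 0.05 and gaps were not tested. The filled points are miR-15b-5p and miR-16-5p in E7.5 Epi Dnmt-null and miR-16-5p in E7.5 Epi Dnmt1-KO.

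In Epi at E6.5 values of the same members were low in Dnmt-null but short of a call. miR-16-5p was at 3605, 3276, 3315 and 3291 CPM in the controls and at 818, 2110, 2535 and 2614 in Dnmt-null, and miR-15b-5p at 992, 1159, 1079 and 996 against 155, 727, 885 and 771. Neither pair of groups overlapped. The log2 differences were -0.86 ± 0.31 for miR-16-5p (adjusted p = 0.0716) and -0.85 ± 0.40 for miR-15b-5p (adjusted p = 0.178). edgeR called 0 of 4 members tested with 2 at an unadjusted p under 0.05, and DESeq2 called both, in a comparison where edgeR called 13% of all 409 miRNAs. Without replicate 1, the library of 45242 counts, they read -0.57 ± 0.20 (adjusted p = 0.0788) and -0.51 (adjusted p = 0.272). The miR-302 and miR-367 sum was 48473 to 100114 CPM in Dnmt-null and 130389 to 200354 in the controls, and blood markers 420 to 1664 against 332 to 427. miR-142a-5p carried most of that sum (0 to 1307 against 198.8 to 231), and miR-451a overlapped (0 to 32.5 against 7.11 to 27.9). The part of the lists in these values was not tested.

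The single and paired mutants of E6.5 Epi had no member called by edgeR or DESeq2 and none at an unadjusted p under 0.05 in edgeR, with 0.733% of all miRNAs called for Dnmt1-KO and 3.42% for Dnmt3a/3b-DKO. DESeq2 gave 2 members an unadjusted p under 0.05 in Dnmt3a/3b-DKO. miR-16-5p in Dnmt3a/3b-DKO was at 2362, 2636, 2697 and 2131 CPM, below all 4 controls (-0.51 ± 0.30, adjusted p = 0.407). In Dnmt1-KO miR-16-5p was at 2208 to 3202 CPM, also below all 4 controls (-0.35 ± 0.30, adjusted p = 0.861). Against Dnmt-null, edgeR called no member in either mutant (1.96% of all called for Dnmt1-KO and 1.22% for Dnmt3a/3b-DKO), with miR-15b-5p at an unadjusted p under 0.05 in each (-0.98 ± 0.40 and -0.86 ± 0.40). Without Dnmt-null replicate 1 it was -0.65 (adjusted p = 0.243) and -0.61 (adjusted p = 0.235), and again no member was called. With all libraries DESeq2 called it against Dnmt1-KO, with a log2 difference of -1.0004 and an adjusted p of 0.0386.

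Exe at E6.5 had few calls of any kind. Of 376 miRNAs tested 0.532% were called in Dnmt-null, 0% in Dnmt1-KO and 0.532% for Dnmt3a/3b-DKO, and none were called between Dnmt-null and either other mutant (0% each). For the 3 comparisons with no call, edgeR had 34, 14 and 6 miRNAs at an unadjusted p under 0.05, in the order Dnmt1-KO against control, Dnmt-null against Dnmt1-KO and Dnmt-null against Dnmt3a/3b-DKO, and DESeq2 called 11, 1 and 0. miR-195a-5p was too low to be tested. miR-15b-5p was at 2068, 806, 1193 and 1400 CPM in the controls and at 850, 946, 654 and 853 in Dnmt-null, overlapping ranges (-0.93 ± 0.31, adjusted p = 0.131), with 1 of 4 members at an unadjusted p under 0.05 in Dnmt-null and 1 in Dnmt3a/3b-DKO. DESeq2 called it in Dnmt-null (-0.86, adjusted p = 0.0492). miR-16-5p overlapped in the same tissue, with 1969 to 3780 CPM in the controls and 2610 to 3790 in Dnmt-null (-0.16 ± 0.25, adjusted p = 0.883).

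At E7.5 in Exe, miR-16-5p was at 4241, 3747, 3607 and 3518 CPM in the controls, at 2977, 3104, 3354 and 1370 in Dnmt-null and at 2136, 2099, 3002 and 3439 in Dnmt1-KO. Neither mutant overlapped the controls, yet neither was called: the log2 differences were -0.49 ± 0.21 (adjusted p = 0.167) and -0.46 ± 0.21 (adjusted p = 0.238). In edgeR 1 member had an unadjusted p under 0.05 in each, and DESeq2 called none (9.88% of 597 miRNAs called in Dnmt-null and 5.03% in Dnmt1-KO). Without Dnmt-null replicate 4, at 1370 CPM, the difference was -0.34 (adjusted p = 0.228). miR-15b-5p in Dnmt-null was at 893, 980, 1038 and 1120 CPM, also below all 4 controls at 1251 to 1448 (-0.38 ± 0.23, adjusted p = 0.401). In Dnmt3a/3b-DKO miR-16-5p was at 3763, 3755, 3879 and 3351 CPM (-0.08 ± 0.21). In that comparison (3.02% of all called), and between Dnmt-null and Dnmt1-KO (1.17%) or Dnmt3a/3b-DKO (3.85%), edgeR and DESeq2 called no member and edgeR gave none an unadjusted p under 0.05.

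Whether the Dnmt-null change itself differed between tissues or stages was tested in 1 fit over the 62 libraries, and no member was called. Of 658 miRNAs tested, 0.912% were called for Epi minus Exe at E6.5, 0.608% for Epi minus Exe at E7.5, 0.608% for E7.5 minus E6.5 in Exe and 10.6% for E7.5 minus E6.5 in Epi. Among members 1 had an unadjusted p under 0.05, miR-16-5p for Epi minus Exe at E6.5 (-1.04 ± 0.35, adjusted p = 0.108, median of all miRNAs -0.68), and DESeq2 called none in these 4 comparisons. Without E6.5 Epi Dnmt-null replicate 1 it was -0.71 (adjusted p = 0.295), and for E7.5 minus E6.5 in Epi miR-16-5p went from 0.23 to -0.22 and miR-15b-5p from 0.11 to -0.39, with no call. At E7.5 the difference of the Dnmt-null effects of miR-16-5p, Epi minus Exe, was -0.32 ± 0.37. So the call in E7.5 Epi and its absence in E7.5 Exe are not shown to differ.

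Summing the members shows the family as a share of each library's miRNA counts. In E7.5 Epi the 5 members took 0.515 ± 0.0182% of counts in controls (SD, n = 3), 0.404 ± 0.0489% in Dnmt1-KO (n = 4), 0.485 ± 0.0507% in Dnmt3a/3b-DKO (n = 4) and 0.348 ± 0.054% in Dnmt-null (n = 3). In E6.5 Epi the controls were at 0.468 ± 0.00881% and the Dnmt-null libraries at 0.278 ± 0.125%, the lowest at 0.0973%. In Exe the Dnmt-null means were 0.424 ± 0.0565% at E6.5 and 0.382 ± 0.0854% at E7.5, beside 0.465 ± 0.0956% and 0.523 ± 0.0278% in controls. miR-16-5p supplies most of this share, so it is close to a readout of that member.

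**Figure D3:**
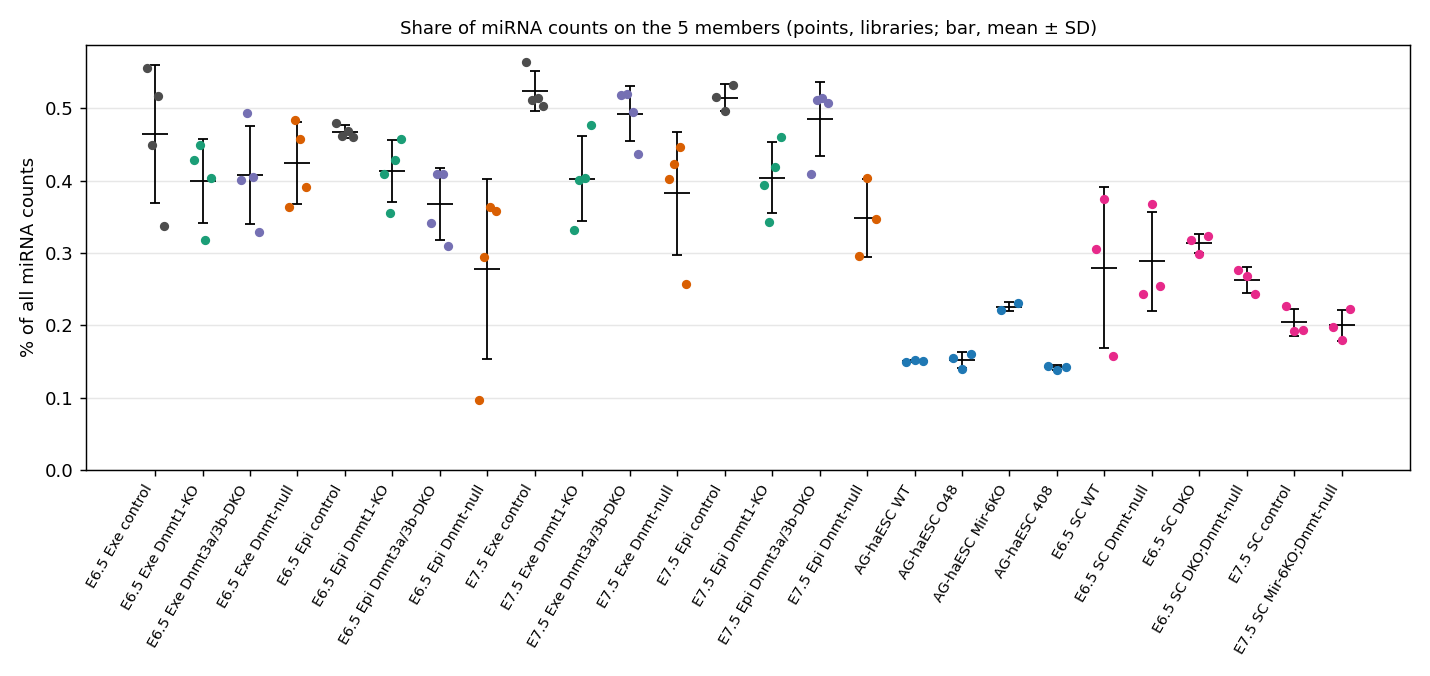
Share of all miRNA counts on the 5 members (y axis, percent) in all 26 groups. Points are libraries and bars mark the mean with the SD. Control Exe and Epi means were 0.465% to 0.523% and Dnmt-null means 0.278% to 0.424%, while WT, O48 and 408 AG-haESCs were near 0.15%.

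Averaged over the 4 tissue and stage sets, the share was 0.358% in Dnmt-null and 0.4926% in controls, a difference of -0.134 percentage points (two-sided permutation test within sets, p = 6e-05, adjusted p = 0.0015 over 30 tests), and the mean was lower in 4 of 4 sets. The call held in all 35 alternatives, also with miR-16-5p left out of the sum (-0.0454). In Dnmt1-KO the share was 0.405% (-0.0879, same permutation test, p = 1e-04, adjusted p = 0.0015, lower in 4 of 4 sets), and with miR-16-5p left out the difference was -0.011 (adjusted p = 0.508). In Dnmt3a/3b-DKO it was 0.438% (-0.0545, adjusted p = 0.0497, lower in 4 of 4 sets), a call lost in 21 of 36 alternatives. These 3 comparisons share their controls. The share did not differ by this test between Exe and Epi (0.0274 points, adjusted p = 0.286) or between E7.5 and E6.5 (0.0415 points, adjusted p = 0.0665).

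No ratio between members was called in any mutant. In Dnmt-null the log2 ratio of miR-15b-3p to miR-15b-5p was higher by 0.82 (adjusted p = 0.224), or by 0.487 to 0.949 with 1 library left out. That value came mostly from E6.5 Exe, where miR-15b-3p, which derives from the same hairpin as miR-15b-5p, was at 14.8% to 20.4% of miR-15b-5p in Dnmt-null (17.3 ± 2.31%, SD, n = 4) and 0% to 10.3% in controls (6.88 ± 4.66%, n = 4). These groups did not overlap, and the set was not tested by itself. Much of its difference in the log2 ratio rests on control replicate 4, which had 0 counts of miR-15b-3p. There the added 0.5 sets the ratio at -8.78, beside -3.23 to -3.56 in the other controls. In counts miR-15b-3p was at 142.9, 163, 133 and 126.4 CPM there in Dnmt-null and at 213, 71.9, 99.0 and 0 in controls (0.43 ± 1.07, adjusted p = 0.935). For miR-16-5p to the sum of miR-15a-5p and miR-15b-5p, the largest difference was -0.26 in Dnmt1-KO (adjusted p = 0.338), and for miR-195a-5p to miR-16-5p Dnmt1-KO differed by -1.12 and Dnmt3a/3b-DKO by -1.06 (adjusted p = 0.286 each).

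The 2 arms of miR-15b stood in another proportion in stem cells than in embryos. miR-15b-3p was at 37.9 ± 3.57% of miR-15b-5p in WT AG-haESCs (SD, n = 3), 37.5 ± 5.88% in O48 (n = 3) and 40.8 ± 3.64% in line 408 (n = 3). Single libraries of these 3 lines ran from 33.8% to 44.7%. Each of the 62 Exe and Epi libraries and each SC library had a lower percentage, the highest being 20.4%. Cells and embryos were not tested against each other, since source and depth differ together. The libraries labelled Mir-6KO were at 5.36% and 2.65%.

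**Figure D4:**
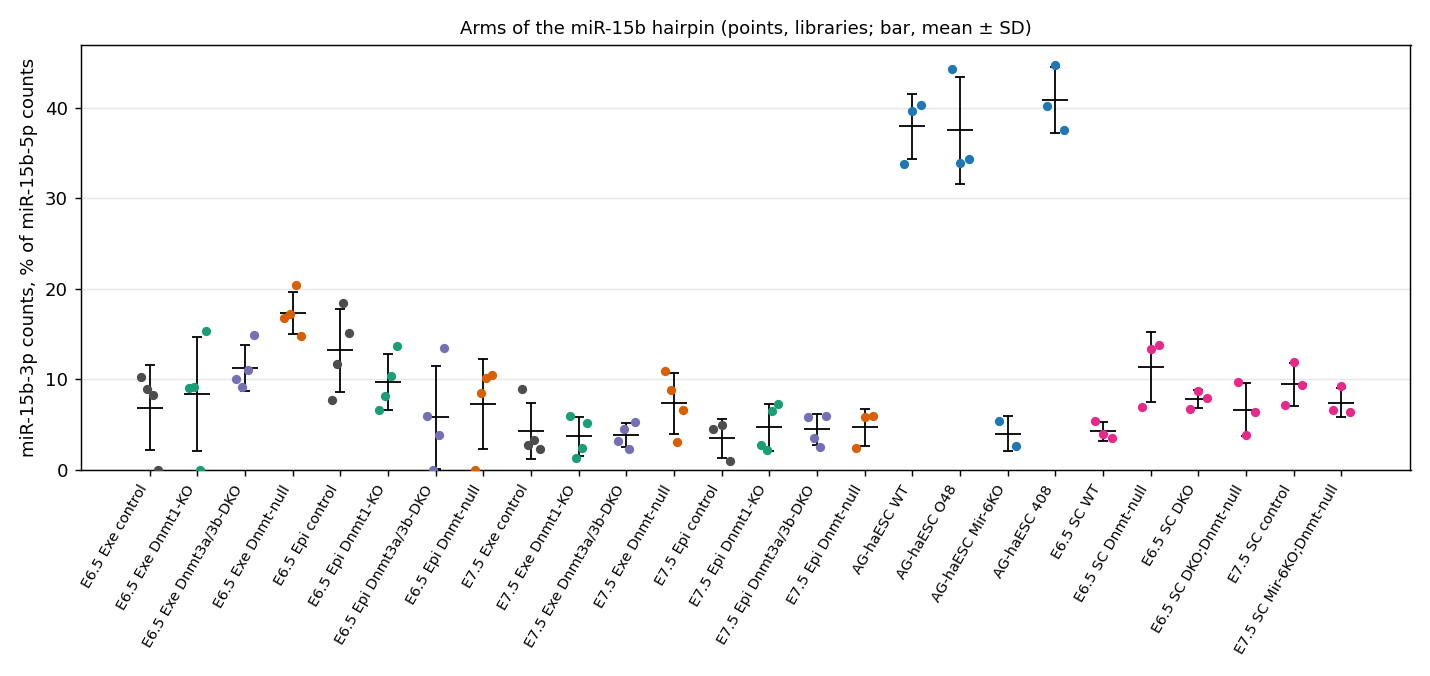
miR-15b-3p as a percent of miR-15b-5p in each library (y axis) for all 26 groups (x axis). Points are libraries and bars mark the mean with the SD. WT, O48 and 408 AG-haESCs had means of 37.5% to 40.8%, and the embryo groups and the libraries labelled Mir-6KO lay lower.

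In WT, O48 and 408 AG-haESCs miR-16-5p and miR-15b-5p had lower CPM than in every Exe and Epi library other than E6.5 Epi Dnmt-null replicate 1, while miR-15a-5p, with group means of 30.9 to 45.1 CPM, lay within the range of the embryo groups. This was not tested. miR-16-5p was at 774, 836 and 714 CPM in WT and at 790, 683 and 828 in O48, and miR-15b-5p at 511, 468 and 538 and at 503.05, 498 and 529. Between O48 and WT edgeR called none of the 5 members and gave none an unadjusted p under 0.05 (13.7% of 773 miRNAs called), while DESeq2 called miR-15a-5p (0.96, adjusted p = 0.0344), miR-15b-5p (0.42, adjusted p = 0.003) and miR-16-5p (0.40, adjusted p = 0.0277). The edgeR log2 differences were 0.57 ± 0.37, 0.04 ± 0.13 and 0.02 ± 0.14. miR-15a-5p overlapped little, with 30.7, 29.1 and 32.8 CPM in WT and 31.4, 45.9 and 57.9 in O48. Line 408 was at 699, 680 and 711 CPM for miR-16-5p and at 500, 459 and 479 for miR-15b-5p.

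In the libraries labelled Mir-6KO 2 members were lower than in O48. miR-15b-3p was at 43.2 and 20.7 CPM against 222.7, 169 and 182 in O48, and fell by 3.10 ± 0.38 on the log2 scale (adjusted p = 0.000281). miR-15a-5p was at 21.1 and 16.2 CPM against 31.4, 45.9 and 57.9, and fell by 1.78 ± 0.44 (adjusted p = 0.0104). These were 2 of 5 members called with 52.1% of all miRNAs called and a median log2 difference over all of -0.82. miR-15a-5p with the replicate number as a block was at -1.63 with an adjusted p of 0.0681.

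In the same libraries miR-16-5p was at 1323 and 1481 CPM against 683 to 828 in O48 and miR-15b-5p at 805 and 784 against 498 to 529, groups that did not overlap. TMM gave 0.37 ± 0.16 (adjusted p = 0.0858) and 0.13 ± 0.15 (adjusted p = 0.447). Without Mir-6KO replicate 1 miR-16-5p was at 0.51 (adjusted p = 0.0472) and without replicate 2 at 0.08 (adjusted p = 0.728), while miR-15b-5p was at 0.18 and -0.05. RLE factors called miR-16-5p (0.59, adjusted p = 0.0135). miR-195a-5p was at 19.7 and 0 CPM against 3.60 to 6.42 in O48 (adjusted p = 0.904), and was called lower only without replicate 1 (adjusted p = 0.00881), when the remaining library was the one at 0. With library totals the median of all miRNAs was -0.32 and the values 0.87 (adjusted p = 0.0018) and 0.64 (adjusted p = 0.00712), and DESeq2 called both as well. The rare opposite arms of other loci were at or near 0: miR-16-1-3p was at 0 in both Mir-6KO libraries against 22.8 ± 3.02 CPM in O48 (SD, n = 3), miR-16-2-3p at 0 to 0.469 against 32.4 ± 10.3, and miR-15a-3p at 0 against 6.03 ± 2.56. The miR-302 and miR-367 sum given above, 239331 CPM or more in these libraries, moved with all these values, and its part in them was not tested.

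**Figure D5:**
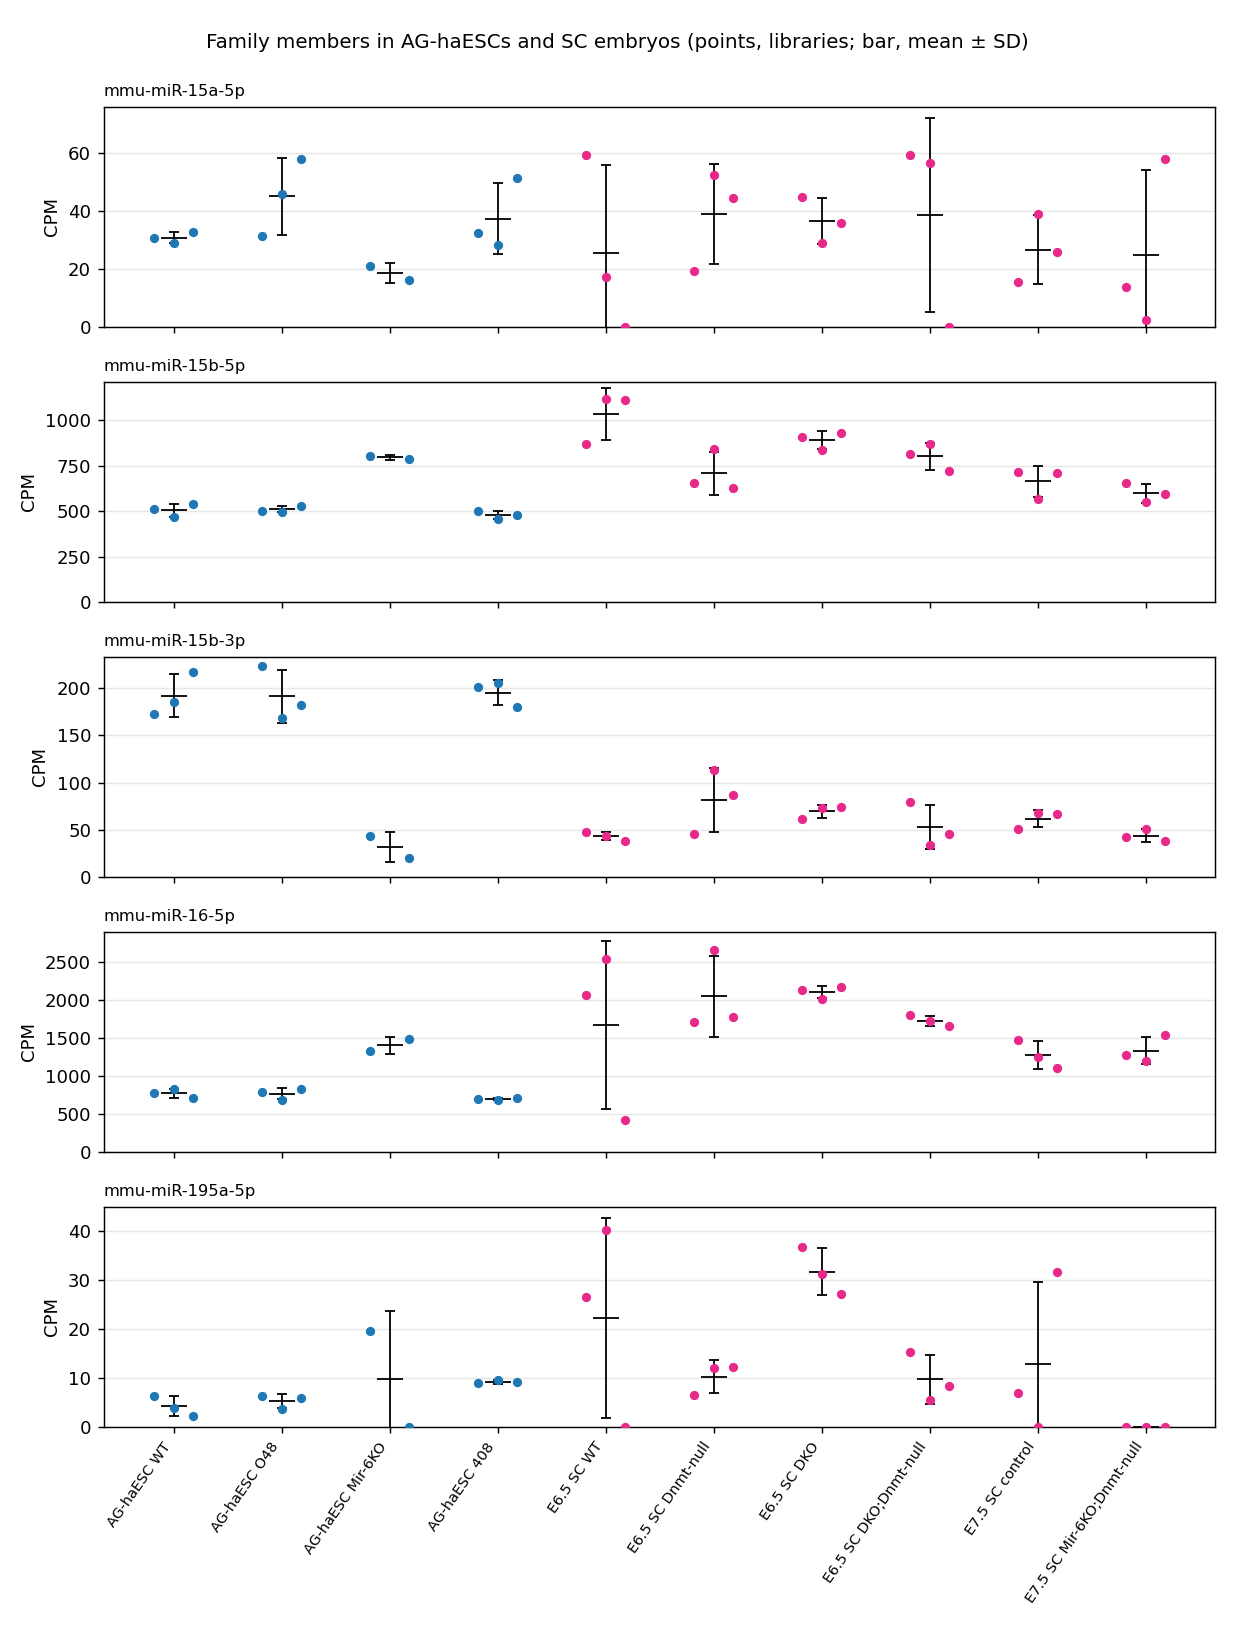
Levels of the 5 members in CPM (y axis, 1 panel a member) in AG-haESC and SC embryo groups (x axis). Points are libraries and bars mark the mean with the SD. miR-16-5p was between 680 and 836 CPM in WT, O48 and 408 cells, at 1323 and 1481 in the libraries labelled Mir-6KO and at 426 in WT-SC replicate 3.

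In E6.5 SC embryos miR-16-5p was at 2061, 2533 and 426 CPM in WT-SC, 1707, 2653 and 1776 in Dnmt-null SC and 2132, 2014 and 2164 in DKO-SC. The value of 426 belongs to the library with few miR-302 and miR-367 reads. Without it the log2 difference of Dnmt-null SC against WT-SC turned from 0.09 to -0.40, and that of DKO-SC from 0.27 to -0.12. miR-15b-5p was at 867, 1118 and 1111 CPM in WT-SC and at 656, 843 and 626 in Dnmt-null SC, groups that did not overlap (-0.87 ± 0.29, adjusted p = 0.196). Without WT-SC replicate 3 this was -0.72 ± 0.21 (adjusted p = 0.0565), and miR-195a-5p went from -1.29 (adjusted p = 0.465) to -1.84 ± 0.52 (adjusted p = 0.0527). edgeR called no member in Dnmt-null SC, with 1 at an unadjusted p under 0.05 and 1.52% of 461 miRNAs called, and DESeq2 called miR-15b-5p (-0.92, adjusted p = 0.0369). Exe markers summed to 11621 to 32461 CPM in Dnmt-null SC against 2536 to 8341 in WT-SC. Endoderm markers (3551 to 4734 against 1828 to 2315) and mesenchyme and vessel markers (363 to 461 against 166 to 257) did not overlap either. The other lists overlapped, and the part of these differences was not tested. In DKO-SC neither tool called a member, and edgeR gave none an unadjusted p under 0.05 (0.217% called).

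DKO;Dnmt-null SC embryos were in a second count table, so table and genotype cannot be told apart in their comparison with DKO-SC. miR-16-5p was at 1796, 1722 and 1654 CPM in DKO;Dnmt-null SC and at 2132, 2014 and 2164 in DKO-SC (-0.39 ± 0.08, adjusted p = 0.0013). miR-195a-5p was at 15.4, 5.65 and 8.33 CPM against 36.7, 31.2 and 27.2 (-1.45 ± 0.43, adjusted p = 0.0127). For both the groups did not overlap. In counts miR-195a-5p was at 1 to 21 in DKO;Dnmt-null SC, with 2 of 3 libraries at or under 3, and at 66 to 79 in DKO-SC. The size of its difference is thus poorly resolved. miR-15b-5p was at 812, 869 and 721 CPM against 907, 837 and 930 (-0.27 ± 0.10, adjusted p = 0.0479), a call lost in 10 of 13 alternatives. So 3 of 5 members were called, all lower, with 35.3% of 603 miRNAs called. Without DKO-SC replicate 1, 1 call was left. Depth was 177142 to 1366522 counts in DKO;Dnmt-null SC and 2150520 to 2425038 in DKO-SC. In the same order the miR-302 and miR-367 sum was 130119 to 147052 CPM against 177971 to 196784, Exe markers 14994 to 18474 against 12097 to 13328, endoderm markers 2540 to 3505 against 1592 to 1953 and blood markers 812 to 1033 against 235 to 313 (miR-142a-5p 629 to 790 against 177 to 232). Mesenchyme and vessel markers overlapped, at 310.5 to 422 against 309.8 to 324. The part of these differences was not tested.

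At E7.5 neither tool called a member between Mir-6KO;Dnmt-null SC and Control-SC embryos, and edgeR gave none an unadjusted p under 0.05 (3.08% of 585 miRNAs called). miR-16-5p was at 1470, 1252 and 1107 CPM in Control-SC and at 1272, 1196 and 1532 in Mir-6KO;Dnmt-null SC (-0.17 ± 0.19, adjusted p = 0.995). miR-195a-5p was not tested. It had 188, 0 and 423 counts in Control-SC, libraries of 26970637, 19089889 and 13306003 counts, and was at 0 in all 3 Mir-6KO;Dnmt-null SC libraries, which allows up to 0.178 to 0.350 CPM a library (3 counts, counting error only). So within the Control-SC group the library of 19089889 counts lacked it.

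Other miRNAs of the G1/S step were read as lists of 11 further brakes and 12 promoters of S-phase entry. In E7.5 Epi Dnmt-null 0 of 8 tested brakes rose and 1 fell (miR-26a-5p, which targets cyclins and Ezh2, by 0.92 on the log2 scale), with a list median of -0.48. Of 12 promoters 2 rose (miR-294-3p by 1.29 and miR-295-3p by 0.58, both of the stem cell miR-290 cluster) and 6 fell (miR-302a-3p to miR-302d-3p by 0.90 to 1.16, miR-17-5p by 0.79 and miR-106b-5p by 1.49), with a median of -0.59. The median of all miRNAs was -0.19 and 33.7% were called. So the miR-302 members, which oppose the family in G1, and miR-16-5p and miR-15b-5p were lower in the same libraries. In E6.5 Epi Dnmt-null, with 13% of all miRNAs called, edgeR called 0 of 4 brakes and 5 of 11 promoters, all 5 lower (miR-295-3p by 1.04 and miR-302a-3p to miR-302d-3p by 1.24 to 1.54). Without replicate 1 the same 5 promoters were called, all lower, 1 brake was higher (let-7b-5p), and 11.1% of 432 miRNAs were called.

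miR-322-5p, 1 of the 2 other brakes with the family seed, was higher at E7.5 than at E6.5 in control Exe. It was at 15.7 ± 15.6 CPM in E6.5 Exe controls (0 to 7 counts) and 206 ± 55.6 in E7.5 Exe controls (124 to 351 counts, SD, n = 4 each). No test between stages is given, since it passed the filter on low counts mainly through the E7.5 controls. The miR-302 and miR-367 sum (17588 to 30822 CPM against 33367.5 to 45944) and mesenchyme and vessel markers (332 to 820 against 1147 to 2952) also differed by stage without overlap. The other lists overlapped, and their part was not tested. In E7.5 Exe Dnmt-null miR-322-5p was at 70.9 ± 32.9 CPM and fell by 1.53 ± 0.46 (adjusted p = 0.0391), while Dnmt1-KO (-0.72 ± 0.45, adjusted p = 0.423) and Dnmt3a/3b-DKO (-0.50 ± 0.45, adjusted p = 0.938) were not called. In E6.5 Exe mutants it was not tested. The miR-302 and miR-367 sum in E7.5 Exe was 17252 to 27413 CPM in Dnmt-null against 33367.5 to 45944 in controls, without overlap. The other lists overlapped, and the part of this difference in the fall was not tested. In control Exe miR-503-5p, the neighbour of miR-322-5p on the X chromosome, rose by 2.60 from E6.5 to E7.5, and let-7a-5p fell by 1.87. In that comparison 14.3% of all miRNAs were called. Between Exe and Epi controls at E6.5, 2 brakes were higher in Exe (let-7a-5p by 2.01 and miR-503-5p by 1.90) and miR-26b-5p was lower. Beside them 1 promoter was higher and 7 lower of 12, where 29.4% of all miRNAs were called. miR-497a-5p is left out here, since no test of it is given for these groups.

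As a description over the 16 group means of log2 CPM, miR-16-5p was most like miR-186-5p (Pearson r = 0.887) and miR-30b-5p (0.832) among 508 miRNAs. miR-15b-5p was most like miR-425-5p (0.898) and miR-191-3p (0.832), and miR-195a-5p most like miR-652-3p (0.872) and miR-325-3p (0.863). miR-15a-5p was most like miR-301a-5p (0.739) and miR-15b-3p most like miR-466i-5p (0.729). Within the family r was 0.756 for miR-15b-5p and miR-16-5p, 0.513 for miR-16-5p and miR-195a-5p and 0.101 for the arms of miR-15b. The points share libraries, depth and normalisation.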

How the data were processed

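Small RNA libraries were made from embryo tissue, AG-haESCs and SC embryos. Per the submitters' notes and the methods, the authors trimmed adapters (fastp 0.20.1), mapped to the GRCm38 genome (Bowtie 1.2.1.1) and then to miRBase mature sequences, allowed small shifts of the 3′ end, and deposited whole-number counts per mature miRNA. They compared groups with DESeq2 1.30.1. No molecular identifiers are described, so PCR copies are counted as reads and intervals cover counting error only. Of the tables, 91 columns were used, and 90 columns of another table were not used.

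Here counts were tested with edgeR 4.0.16 (R 4.3.3, limma 3.58.1), by the quasi-likelihood test with TMM factors, filterByExpr with a count minimum of 10, and Benjamini-Hochberg adjustment over all miRNAs tested. Called means an adjusted p under 0.05. Mutants were fitted with all groups of their tissue and stage, and the steps were tested on simulated data. Ratios and shares were compared by stratified permutation (100000 resamples, or 20000 when a library was left out), adjusted over 30 tests. DESeq2 1.42.0, library totals, RLE factors, other filters and leaving out each library were alternatives. Python 3.11.15 with numpy 2.4.6, pandas 2.3.3 and matplotlib 3.10.9 was used.

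The text names the 5 members, their locus partners and seed mates, fixed cell-cycle and marker lists, and for each member the miRNAs of most like pattern. Members and lists were chosen with earlier results of these data known. No replicates had identical values (118 pairs). Sequences are from RefSeq and host genes from GENCODE.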

Additional observations from a re-analysis of the deposited data

Results flagged for a closer look

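Of 70 sets of 4 or more libraries, 4 had 1 library far from the rest by Dixon's test at the 95% level, about the number chance gives (1 in 20). They were E7.5 Epi Dnmt1-KO replicate 2 for miR-15a-5p (118 CPM, the others 25.0 to 38.2), E7.5 Epi Dnmt3a/3b-DKO replicate 4 for miR-15a-5p (72.4 CPM, the others 21.5 to 26.2), E7.5 Exe control replicate 1 for miR-15b-3p (112 CPM, the others 34.04 to 46.9) and E6.5 Epi control replicate 1 for miR-16-5p (3605 CPM, the others 3276 to 3315). Line 408, an AG-haESC line whose genotype the labels do not give, entered no comparison. All 5 members were above 0 in its 3 libraries, with lowest values of 28.4 CPM for miR-15a-5p, 459 for miR-15b-5p, 180 for miR-15b-3p, 680 for miR-16-5p and 8.92 for miR-195a-5p.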

How the results depend on the processing

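Depth limits the rare members: miR-195a-5p and miR-15a-5p rest on under 10 counts in many libraries, so absent calls do not show equal levels. The labels do not say whether replicate numbers pair the libraries, and the main tests treat libraries as unpaired. Deviations of same-numbered Exe and Epi libraries had a median correlation of 0.0595 (-0.0734 to 0.276, 10 of 30 pairs over 0.1). Those of mutants and controls had a median of 0.0107 (9 of 45). Most Exe and Epi pairs were weakly above 0, so pairing of the 2 tissues is not excluded. With the replicate number as a block, 1 AG-haESC call was left of 2, the share difference between stages became 0.0428 points (past the threshold), and the log2 ratio of miR-16-5p to the miR-15 members turned to 0.00118 between Exe and Epi.

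Numbers of members called moved as follows. With only the compared groups in the fit they went from 1 to 0 for control Exe against Epi, from 0 to 1 between stages, from 1 to 0 for Dnmt-null against Dnmt1-KO and from 2 to 1 in AG-haESCs. With library totals they went from 1 to 0 for Dnmt1-KO and for Dnmt-null against each other mutant, and from 2 to 4 in AG-haESCs. RLE factors or no filter left 0 of 1 for Dnmt-null against Dnmt1-KO. DESeq2 gave 5 for Dnmt-null, 2 for Dnmt-null against Dnmt1-KO, 7 in AG-haESCs and 1 in E6.5 SC embryos. An unadjusted p with a log2 change over 0.5 gave 1 between stages, 5 for Dnmt-null, 1 for Dnmt3a/3b-DKO, 3 for Dnmt-null against each other mutant, 1 for the difference of the Dnmt-null effect, 1 in E6.5 SC embryos and 1 for DKO;Dnmt-null SC. Leaving out 1 library gave 2 to 3 for Dnmt-null against control, so 1 more member was called at most. It gave 0 to 1 for Dnmt-null against Dnmt1-KO (0 in 5 of 31) and against Dnmt3a/3b-DKO (0 without Dnmt-null replicate 1), 2 to 4 in AG-haESCs and 1 to 3 for DKO;Dnmt-null SC.

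Share differences, in percentage points, read as follows. Exe minus Epi turned to -0.0128 without the most abundant miRNA and to -0.0259 with TMM-scaled totals, an alternative chosen after seeing the data. E7.5 minus E6.5 passed the threshold with the same choices (0.0592 and 0.0535) and ran from 0.0340 to 0.0467 without 1 library. Over all its alternatives it went as low as 0.00437, and the highest adjusted p of the permutation test was 0.807. Dnmt1-KO lost its call without miR-16-5p (-0.011). Dnmt3a/3b-DKO lost its call without miR-16-5p (-0.0222) and in libraries of at least 100000 counts (-0.047), and ran from -0.0651 to -0.047 without 1 library.

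Log2 ratios moved with the pseudocount (1 or 2), the libraries of at least 100000 counts, or 1 library left out. For miR-15b-3p to miR-15b-5p, Exe minus Epi became -0.0517 at that depth (-0.131 to 0.217 without 1 library), E7.5 minus E6.5 passed the threshold at -1.01 and -1.15 with pseudocounts 1 and 2 (-1.07 to -0.784), Dnmt-null passed at 0.879 with pseudocount 2 (0.487 to 0.949), Dnmt1-KO became 0.112 at that depth (-0.349 to 0.363), and Dnmt3a/3b-DKO became 0.00413 and 0.014 with the pseudocounts and 0.125 at that depth (-0.337 to 0.319). miR-15b-5p to miR-15a-5p passed between stages at 0.789 with pseudocount 2. miR-16-5p to the miR-15 members between stages ran from -0.00991 to 0.0620. miR-195a-5p to miR-16-5p became -0.237 and -0.586 between stages (-0.0491 to 0.271) and 0.0746 and 0.257 in Dnmt-null (-0.245 to 0.137) with pseudocounts 1 and 2. miR-16-2-3p to miR-16-1-3p in Dnmt3a/3b-DKO ran from -0.634 to 0.307 without 1 library. The cause of these shifts was not tested.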
